A study of Mus musculus with 10 samples.

Results

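Genes of DNA replication, mitosis and deoxynucleotide synthesis were described in the epididymal white adipose tissue (eWAT) of 10 mice injected with desferrioxamine (DFO). A list of 34 gene symbols was taken, and a gene was a member when a non-control probe of the array carried its symbol. All 34 were found, of 34797 gene symbols on the array. Membership went by symbol and used no measured value, but the list itself was chosen with earlier results of these data known. They were measured by 51 probes: 22 members had 1 probe, 7 had 2 and 5 had 3.

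The animals were adult male C57BL/6JOlaHsd wildtype mice (C57BL/6J in another label) and carried no engineered allele. They were fed a purified low fat diet for 3 weeks and then a high-fat diet for 12 weeks, all at 29°C. DFO, a chelator that binds iron, was injected daily for 5 days at 100 mg/kg body weight, and eWAT was taken on day 6, 2 h after food was removed. RNA of each mouse was labelled with Cy5 and hybridized on its own array against a Cy3-labelled pool, which held RNA of all samples of the wider study, these mice and a control group included. The values are log2 ratios of a mouse over this pool, on 1 array per mouse. Arrays of the control mice were not analysed here and dyes were not swapped, so all 10 mice form 1 group, no ratio was tested against 0, and no value below is an effect of DFO.

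A cell that divides first loads the MCM helicase onto its DNA, then copies the DNA in S phase and parts the copies in mitosis. Ribonucleotide reductase makes the deoxynucleotides for this from ribonucleotides. Its large subunit is encoded by *Rrm1*, and its small subunit, which holds an iron centre with a tyrosyl radical, by *Rrm2* in dividing cells or by the p53-induced *Rrm2b* in resting and damaged cells. DFO is known to take iron from this enzyme and to stop cultured cells before or in S phase. Mature fat cells seldom divide, whereas macrophages, progenitors and endothelial cells of fat can. Many of these genes are transcribed by E2F factors around S phase or through CHR and CCAAT elements around mitosis.

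A probe counted as expressed when its Cy5 signal was well above background on at least 5 arrays. This held for 33 of the 34 members, of which 32 were above background on all 10 arrays, while *Bub1* was so on 9. *Aurkb*, the kinase of the chromosomal passenger complex, was not well above background on any array. Each gene is given by the probe with the highest mean Cy5 signal. The median Cy5 brightness of a spot was 53 to 79 depending on the array, where the median local background was 32 to 37, and no spot was saturated. The 10 arrays lay on 5 slides, 2 on each. On the first component of all 27718 expressed probes, which held 75.1% of the variance between mice, mice 4, 5, 6 and 7 stood apart from the other 6.

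The members moved as 1 block through the mice. Over the 33 expressed members, the median log2 ratio of a mouse was lowest in mouse 9 at -0.81 and highest in mouse 6 at 0.84. The median over all expressed probes stayed between 0.00 and 0.02 in every mouse. For 30 of the 33 members the 4 highest values were those of mice 4, 5, 6 and 7, which was true of 17.9% of all expressed probes, and for no member were these mice the 4 lowest, against 21.3% of probes. The exceptions were *Rrm2b*, *Mcm7* and *Ccne1*. *Cdc6* was among the 30 only narrowly, with mouse 4 at -0.044 and mouse 3 at -0.050. Mouse 6 had the highest value of all 10 for 29 members, compared to 8.4% of probes, and mouse 9 the lowest for 27, compared to 15.1% of probes. These mice were set apart with all probes in view, the members included, so the counts are descriptions and no test was made on them.

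**Figure D1:**
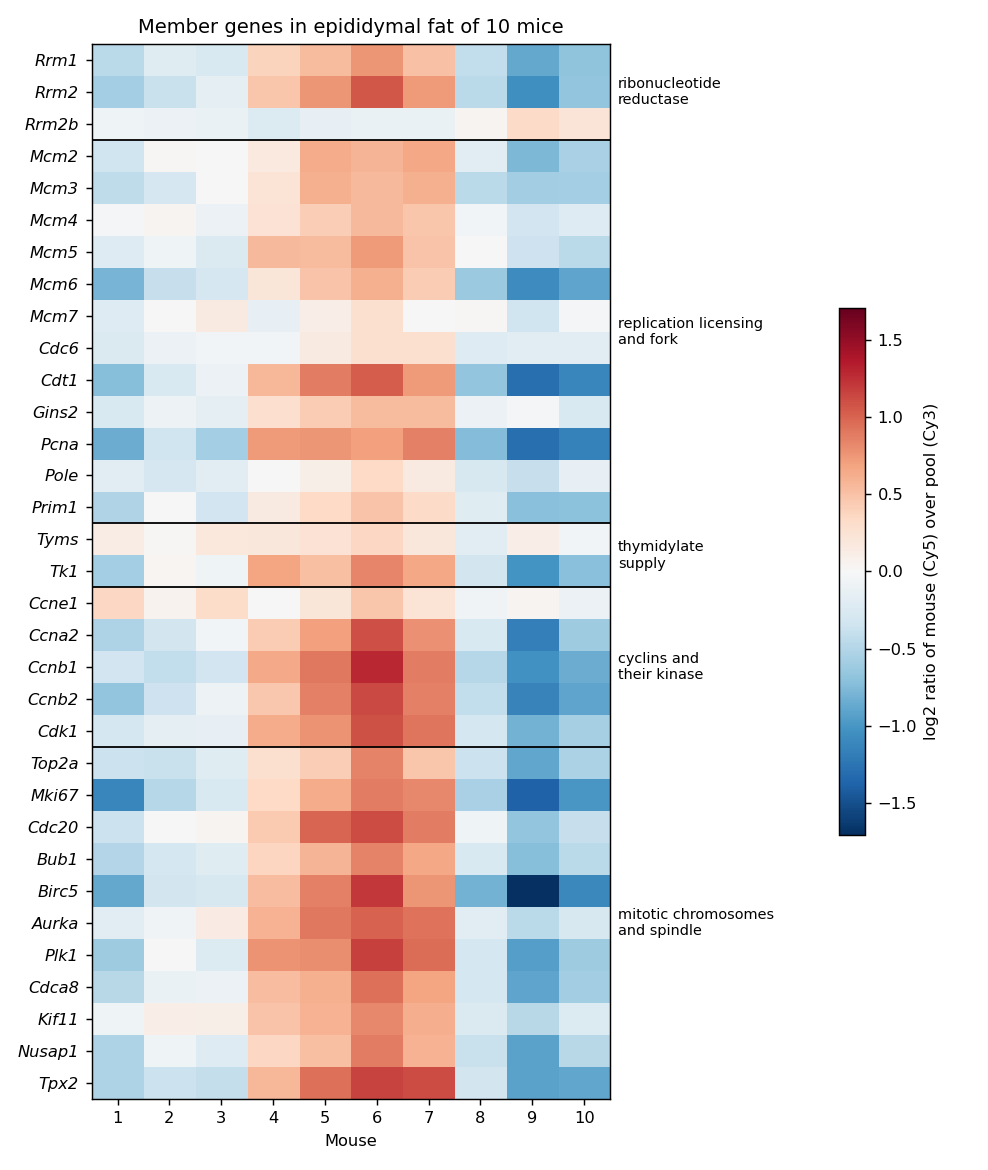
Log2 ratio of each mouse over the pool for the 33 expressed members (rows, ordered by role) in mice 1 to 10 (columns), with red above and blue below the pool. Mice 4 to 7 are red in nearly every row, mouse 6 is the deepest red and mouse 9 the deepest blue, while *Rrm2b*, *Mcm7*, *Cdc6*, *Ccne1* and *Tyms* stay pale.

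Whether a gene differed between mice by more than the arrays did was asked with the pool, which is the same RNA on every array. Tissue sampling and RNA preparation of each mouse are not part of the pool's spread. A call therefore does not part them from differences between the mice. Log2 Cy5 varied more than log2 Cy3 over the 10 arrays for 32 of the 33 members (Pitman-Morgan test for paired variances, two-sided, Benjamini-Hochberg adjusted over all probes). This was so for 59.7% of the 25049 probes tested. The adjusted p given for single members below are from this test. *Tyms*, thymidylate synthase, was the exception. The median SD of the log2 ratio was 0.57 over the members and 0.18 over all expressed probes. Without mice 4 to 7 the test called 12 of the 33 members, compared to 14.2% of probes. These 12 were *Rrm2*, *Mcm3*, *Cdt1*, *Pcna*, *Prim1*, *Tk1*, *Ccna2*, *Mki67*, *Bub1*, *Birc5*, *Plk1* and *Cdca8*.

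**Figure D2:**
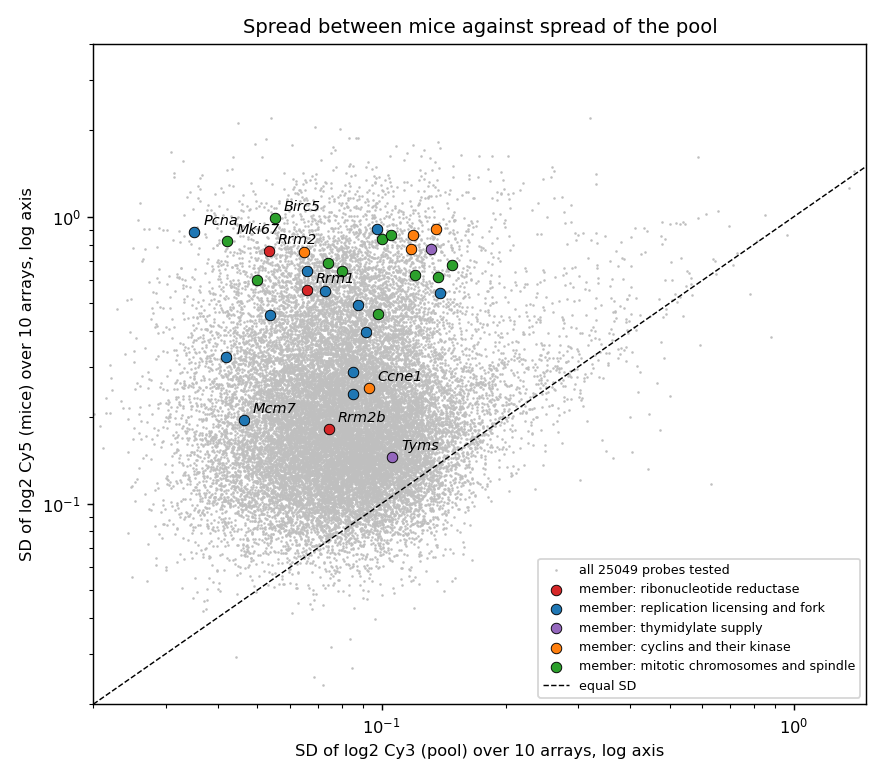
SD of log2 Cy5 (mice) against SD of log2 Cy3 (pool) over 10 arrays, both on log axes, for all 25049 probes tested (grey) and the 33 expressed members (coloured by role). All members lie above the line of equal SD, *Tyms* the nearest to it with 0.15 against 0.11, and *Pcna* far above it with 0.88 against 0.04.

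The ribonucleotide reductase genes parted into a pair that followed the block and 1 that did not. The log2 ratio of *Rrm2*, the small subunit of dividing cells, was lowest at -1.05, had a median of -0.26 and was highest at 1.06, a 4.30-fold range. Mice 4 to 7 lay between 0.47 and 1.06 and the other 6 at or below -0.15, with no overlap. The SD of log2 *Rrm2* was 0.76 in Cy5 and 0.05 in Cy3 (adjusted p = 1.9e-07, Pitman-Morgan test, n = 10 arrays).

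*Rrm1*, the large subunit, ran from -0.87 in mouse 9 through a median of -0.23 to 0.75 in mouse 6, a 3.07-fold range. Here too mice 4 to 7, from 0.38 upwards, did not overlap the others, which lay at or below -0.21. Its SD was 0.56 in Cy5 and 0.07 in Cy3 (adjusted p = 2.07e-05).

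*Rrm2b*, the small subunit that p53 induces, had log2 ratios of -0.23 at the lowest, -0.10 in the median and 0.33 at the highest. Its highest values lay in mice 9 and 10, where *Rrm2* was lowest, and its lowest lay in mouse 4. The 1.47-fold range was small, but the SD of 0.18 in Cy5 exceeded the 0.07 in Cy3 (adjusted p = 0.0312). The other *Rrm2b* probe passed the background on a single array. On the mm9 build that the array's annotation uses, the *Rrm1* probe lies at chr7:109617223-109617283, that of *Rrm2* at chr12:25398824-25398883 and that of *Rrm2b* at chr15:37853821-37853880. Whether these lie in coding or untranslated exons was not determined here.

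**Figure D3:**
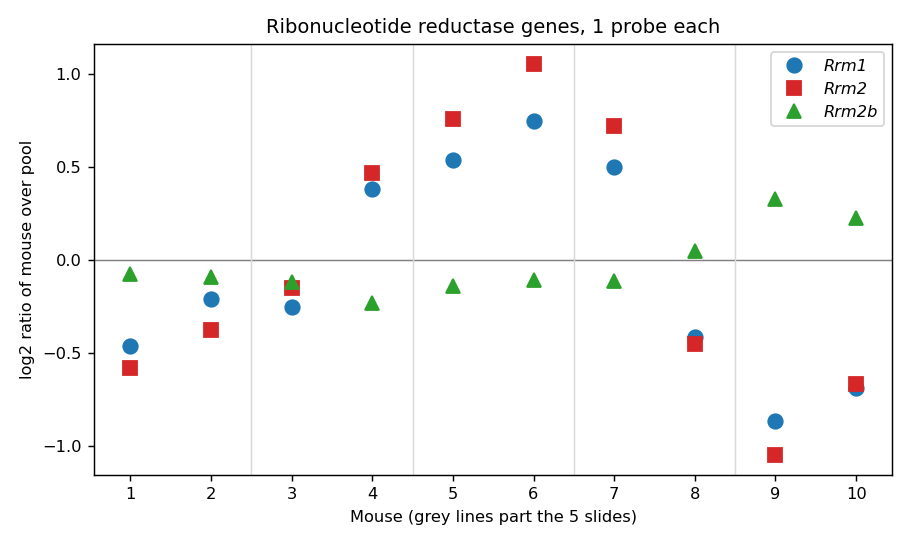
Log2 ratio over the pool of *Rrm1*, *Rrm2* and *Rrm2b* in each mouse (1 probe per gene, 1 array per mouse, grey lines between slides). *Rrm1* and *Rrm2* are above 0 in mice 4 to 7 and below 0 in the other 6, while *Rrm2b* is highest in mice 9 and 10.

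All 12 replication licensing and fork genes were expressed, and all varied more in Cy5 than in Cy3, compared to 59.7% of all probes. Without mice 4 to 7 this was so for 4 of them, compared to 14.2% of all probes. *Pcna*, the clamp that holds polymerases on DNA, ran from -1.28 through a median of -0.46 to 0.86. Its SD was 0.88 in Cy5 and 0.04 in Cy3, which made it the member with the largest ratio of the SDs, 25.1 (adjusted p = 1.71e-08). With *Mcm2*, *Mcm3* and *Rrm2b* it was one of 4 expressed members for which mouse 6 was not the highest, and mice 4 to 7 lay between 0.70 and 0.86.

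*Cdt1*, which loads the MCM helicase together with *Cdc6*, ran from -1.29 through -0.18 to 1.03 (adjusted p = 3.65e-06). *Mcm6*, a subunit of that helicase, ran from -1.08 through -0.34 to 0.61 (adjusted p = 5.65e-06). For both, mice 4 to 7 held the 4 highest values, mouse 6 the highest and mouse 9 the lowest.

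The 6 subunits of the MCM helicase, which act as 1 ring, did not spread alike. The SD of the log2 ratio was 0.63 for *Mcm6*, 0.50 for *Mcm2* and *Mcm3*, 0.44 for *Mcm5*, 0.30 for *Mcm4* and 0.18 for *Mcm7*. *Mcm7* ran only from -0.34 to 0.28, with mouse 4 below the pool at -0.15 and mouse 3 above it at 0.15, so that mice 4 to 7 and the others overlapped. It still varied more in Cy5 than in Cy3 (adjusted p = 0.000886). Probes differ in how they respond, so these SDs order probes and were not tested against each other. Of the other fork genes, *Prim1* (primase) had an SD of 0.44, *Gins2* (a helicase cofactor) of 0.32, *Pole* (DNA polymerase epsilon) of 0.23 and *Cdc6* of 0.20.

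The thymidylate genes differed in how far they spread. *Tk1*, the salvage kinase made in S phase, ran from -1.02 through -0.02 to 0.84 (adjusted p = 1.41e-06), with mice 4 to 7 at 0.52 and above and the other 6 at 0.03 and below. *Tyms*, which makes thymidylate de novo, ran from -0.20 through 0.16 to 0.35. Mice 4 to 7 held its 4 highest values too, narrowly, at 0.193 and above with the other 6 at 0.186 and below. Its SD of 0.15 in Cy5 was not shown to differ from 0.11 in Cy3 (adjusted p = 0.438). Its Cy3 signal was above background on 8 arrays, fewer than for any other expressed member.

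Of the cyclins and their kinase, the mitotic ones varied most. *Ccnb1*, a cyclin of mitotic entry, ran from -1.03 through -0.33 to 1.29, a 4.98-fold range (adjusted p = 1.77e-05). *Ccnb2*, its relative, ran from -1.14 through -0.22 to 1.12 (adjusted p = 1.78e-05), and *Ccna2*, the cyclin of S phase and G2, from -1.16 through -0.15 to 1.09 (adjusted p = 1.16e-06). *Cdk1*, the kinase they bind, ran from -0.81 to 1.08. In all of these genes mouse 6 was highest, mouse 9 lowest and mice 4 to 7 did not overlap the others.

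*Ccne1*, the cyclin of the G1 to S transition, did not follow them. It ran from -0.11 through 0.13 to 0.48, with mouse 6 highest, mouse 1 next at 0.35 and mouse 4 at -0.01. Its SD of 0.25 in Cy5 exceeded the 0.09 in Cy3 (adjusted p = 0.00275).

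All 11 expressed genes of mitotic chromosomes and the spindle had their highest value in mouse 6, their lowest in mouse 9 and their 4 highest in mice 4 to 7. *Birc5* (survivin), a subunit of the chromosomal passenger complex, had the largest spread of all members. It ran from -1.71 through -0.30 to 1.21, a 7.54-fold range, and its SD was 0.99 in Cy5 and 0.06 in Cy3 (adjusted p = 2.09e-07). *Mki67*, the proliferation marker that coats mitotic chromosomes, ran from -1.38 through -0.37 to 0.88 (adjusted p = 1.96e-07). *Tpx2*, a spindle assembly factor that activates the kinase *Aurka*, ran from -0.91 through -0.34 to 1.15 (adjusted p = 1.17e-05). On mm9 the *Birc5* probe lies at chr11:117716978-117717037 and that of *Mki67* at chr7:142884764-142884823. The smallest SD of the group was 0.44, that of the spindle motor *Kif11*. Between these lay *Plk1* (a mitotic kinase) with an SD of 0.75, *Cdc20* (an activator of the anaphase-promoting complex) with 0.63, *Cdca8* (a passenger complex subunit) with 0.62, *Nusap1* (a microtubule binder) with 0.58, *Bub1* (a checkpoint kinase) and *Aurka* with 0.56 each, and *Top2a* (the topoisomerase that untangles copied DNA) with 0.54.

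Where a member had several expressed probes, these set the same mice apart. The further expressed probe of *Mcm3*, *Tk1*, *Mki67* and *Cdca8*, both further probes of *Birc5* and 1 of *Ccnb1* also had their 4 highest values in mice 4 to 7. Amplitudes differed: the SD was 0.97, 0.74 and 0.66 for the *Birc5* probes, and 0.82 for the main *Ccnb1* probe against 0.33 for a dimmer one that was above background on 5 arrays. The *Bub1* probe was printed in 10 spots per array, and the SD over these spots had a median of 0.12 over the arrays, compared to 0.56 between mice.

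Promoters are shown for 5 members to set the genes of the block beside *Mcm7*, which did not follow it. Each is the 250 bases before the first RefSeq start site listed for the gene, on GRCm38.p6, from 5′ to 3′ on the gene's strand. Capitals mark matches on either strand to the E2F octamers TTTCCCGC, TTTCGCGC, TTTGCCGC and TTTGGCGC, to the CHR hexamer TTTGAA and to CCAAT. *Rrm2* lies at chr12:24708004-24708253 (plus strand), *Mcm6* at chr1:128359706-128359955 (minus), *Mcm7* at chr5:138171884-138172133 (minus), *Cdk1* at chr10:69352913-69353162 (minus) and *Cdc20* at chr4:118437344-118437593 (minus).
Rrm2: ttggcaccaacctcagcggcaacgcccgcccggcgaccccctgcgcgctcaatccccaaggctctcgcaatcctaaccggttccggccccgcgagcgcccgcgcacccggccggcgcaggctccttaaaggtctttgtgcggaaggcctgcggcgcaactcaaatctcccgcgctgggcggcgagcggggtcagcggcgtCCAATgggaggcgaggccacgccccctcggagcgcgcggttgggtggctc
Mcm6: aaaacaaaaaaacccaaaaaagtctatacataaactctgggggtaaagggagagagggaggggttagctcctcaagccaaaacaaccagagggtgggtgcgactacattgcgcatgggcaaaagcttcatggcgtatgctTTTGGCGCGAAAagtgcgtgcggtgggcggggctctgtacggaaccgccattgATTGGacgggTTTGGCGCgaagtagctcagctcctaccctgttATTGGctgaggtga
Mcm7: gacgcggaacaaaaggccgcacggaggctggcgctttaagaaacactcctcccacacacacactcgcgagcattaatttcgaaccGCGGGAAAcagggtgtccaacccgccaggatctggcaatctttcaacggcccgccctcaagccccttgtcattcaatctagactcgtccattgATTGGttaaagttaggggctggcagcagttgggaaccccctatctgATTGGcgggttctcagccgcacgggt
Cdk1: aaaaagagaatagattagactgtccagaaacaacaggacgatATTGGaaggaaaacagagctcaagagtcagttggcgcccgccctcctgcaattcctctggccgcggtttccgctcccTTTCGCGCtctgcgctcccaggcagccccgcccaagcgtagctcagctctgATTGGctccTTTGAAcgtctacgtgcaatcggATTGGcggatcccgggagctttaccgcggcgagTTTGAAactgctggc
Cdc20: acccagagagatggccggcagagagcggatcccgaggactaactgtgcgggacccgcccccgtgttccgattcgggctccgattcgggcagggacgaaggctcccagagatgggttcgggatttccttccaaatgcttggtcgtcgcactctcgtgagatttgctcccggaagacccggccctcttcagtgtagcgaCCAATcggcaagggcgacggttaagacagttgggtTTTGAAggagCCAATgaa

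In these windows *Rrm2* held CCAAT at 50 to 46 bases before the start and neither other motif. *Mcm6* held 3 E2F octamers, 2 of which overlap on opposite strands, and *Mcm7* held 1, each with 2 CCAAT, so that the windows shown held the same kinds of match while the SD of their log2 ratios was 0.63 and 0.18. A second *Mcm7* start in the table, with the window chr5:138171267-138171516, held 1 CCAAT and no E2F octamer. *Cdk1* held all 3 motifs, with CHR at 71 to 66 and 15 to 10 bases before the start, and *Cdc20* held CHR and CCAAT. Of the 34 members, 27 had a window in the RefSeq table. The others were *Rrm2b*, *Mcm4*, *Gins2*, *Pole*, *Ccna2*, *Aurkb* and *Tpx2*. An E2F octamer was found in 5 of the 27 (18.5%) and in 1.91% of the 27025 genes with a window, 4 of the 5 being licensing genes. CCAAT was found in 20 (74.1%) compared to 34.5% of all genes, and 2 or more CCAAT in 14 (51.9%) compared to 10.5%. CHR was found in 7 (25.9%) compared to 16.3%, and each of these 7 also held CCAAT. A match is a description of the letters in this window.

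Whether members moved together beyond the split of mice 4 to 7 was asked in 10 pairs of genes. In 9 pairs at least 1 gene set mice 4 to 7 apart, and r was then taken over the other 6. The scores of these 6 on the first component still ran from -0.37 in mouse 9 to -0.14 in mouse 2, and r was not adjusted for them. *Rrm1* and *Rrm2* were correlated over these 6 mice (r = 0.93, p = 0.00417, adjusted p = 0.0243 over 10 pairs, exact permutation test, two-sided). Spearman's rho was 0.94 (p = 0.0167, adjusted p = 0.0833, exact permutation test). Without the 2 mice farthest from the median of *Rrm1*, r was 0.75 over 4 mice. *Rrm2* and *Rrm2b* ran against each other, with r = -0.88 (p = 0.00972, adjusted p = 0.0243, exact permutation test) and rho = -0.94 (p = 0.0167, adjusted p = 0.0833, exact permutation test). Without the 2 farthest mice r was -0.69. With median centring of the arrays in place of loess this r was -0.26, and in the authors' normalized table it was -0.46, with neither past the threshold.

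*Ccnb1* and *Cdk1*, the partners of the mitotic kinase, had r = 0.95 (p = 0.00833, adjusted p = 0.0243, exact permutation test) and rho = 0.83 (p = 0.0583, adjusted p = 0.194, exact permutation test). Without the 2 farthest mice r fell to 0.28, so this relation rests on those mice. *Rrm2* and *Top2a* had r = 0.96 (p = 0.00833, adjusted p = 0.0243, exact permutation test) and rho = 0.77 (p = 0.103, adjusted p = 0.257, exact permutation test), and r = 0.71 without the 2 farthest. *Mki67* and *Top2a* had r = 0.82 (p = 0.0278, adjusted p = 0.0463, exact permutation test) and rho = 0.60 (p = 0.242, adjusted p = 0.302, exact permutation test), and r = 0.38 without the 2 farthest, so this one rests on them as well.

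*Top2a* and the macrophage gene *Cd68* had r = 0.83 (p = 0.0222, adjusted p = 0.0444, exact permutation test) and rho = 0.60 (p = 0.242, adjusted p = 0.302, exact permutation test), and r = 0.74 without the 2 farthest. *Pcna* and *Mcm5* (r = 0.75, p = 0.0806, adjusted p = 0.115, rho = 0.66, p = 0.175, adjusted p = 0.292, exact permutation test) did not pass, with r = 0.69 without the 2 farthest. Nor did *Mcm2* and *Mcm5* (r = 0.70, p = 0.128, adjusted p = 0.16, rho = 0.66, p = 0.175, adjusted p = 0.292, exact permutation test), with r = 0.61 without them. No rho passed after adjustment. None of the 6 values of r that passed did so in the authors' normalized table (adjusted p between 0.0833 and 0.464, exact permutation test). Nor did any of the 6 with mouse 2, 3, 8, 9 or 10 left out (adjusted p between 0.0556 and 0.231, exact permutation test).

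*Rrm2* had no relation past the threshold with *Tfrc*, the transferrin receptor, whose RNA is held stable when cells lack iron (r = -0.01, p = 0.994, adjusted p = 0.994, rho = -0.03, p = 1, adjusted p = 1, exact permutation test). This r was -0.68 without the 2 farthest mice. *Rrm2b* and *Cdkn1a*, both targets of p53, formed no clusters and were correlated over all 10 mice. The value was r = -0.05 (p = 0.897, adjusted p = 0.994, permutation test) with rho = 0.22 (p = 0.535, adjusted p = 0.595, permutation test). Without the 2 mice farthest from the median of *Rrm2b*, r was 0.79 over 8 mice, so the value near 0 rests on those 2.

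The slide was examined as a batch, since mice 5 and 6 shared a slide, as did mice 9 and 10. No member differed between slides after adjustment (limma's moderated F test, lowest adjusted p = 0.697), and none of the 27718 probes did. At an unadjusted p below 0.05 the test named 25 of the 33 members, compared to 4.1% of probes. On the pair of slides that held a mouse of each kind, mouse 4 was above mouse 3 for 30 of the 33 members and mouse 7 above mouse 8 for 31, whereas these were so for 47.9% and 48.5% of all probes. Since mice 4 and 7 were among the 4 highest for 30 members, these counts restate that split within slides and are no separate test of the slide.

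Other genes of the same processes were taken from lists, to be read against the 17.9% of all probes for which mice 4 to 7 were the 4 highest and the 21.3% for which they were the 4 lowest. Of 53 other genes of mitosis 45 were expressed, and mice 4 to 7 held the 4 highest values for 36 of them and the 4 lowest for 1. All 42 that could be tested varied more in Cy5 than in Cy3, compared to 59.7% of all probes. Without mice 4 to 7, 4 of the 42 did so, a share no larger than the 14.2% of all probes. The 3 with the largest SD were *Cdca3*, which promotes mitotic entry, with an SD of 0.83, *Cenpe*, a kinetochore motor, with 0.72, and *Incenp*, the scaffold of the passenger complex, with 0.71. Of 44 other replication genes 41 were expressed, and the same 4 mice were highest for 19 and lowest for 2. Of these, 26 of 39 tested (66.7%) varied more in Cy5, a share near the 59.7% of all probes. Without mice 4 to 7, 5 of the 39 did so, again no larger a share than the 14.2% of all probes. The median SD was 0.43 in the mitosis list and 0.20 in the replication list, compared to 0.18 over all probes. *Gmnn*, the inhibitor of Cdt1, had the largest SD of the replication list, 0.70, followed by the histone chaperone subunit *Chaf1b* with 0.66 and the flap endonuclease *Fen1* with 0.64.

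In the list of nucleotide supply, mice 4 to 7 were highest for 8 of 22 expressed genes and lowest for 3. The largest SDs there belonged to the thioredoxin system, which gives electrons to ribonucleotide reductase, with 0.93 for *Txnrd1* and 0.61 for *Txn1*. The dNTP hydrolase *Samhd1* followed with 0.37. In the list of cell cycle control the 4 mice were highest for 10 and lowest for 6 of 31 genes. *Cdkn2c*, an inhibitor of Cdk4 and Cdk6, was lowest in mice 4 to 7, between -1.53 and -0.79, as was the cyclin *Ccnd2*, between -1.25 and -0.59. The inhibitor *Cdkn1c* was highest there, between 0.35 and 1.47.

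Of 21 expressed p53 targets, mice 4 to 7 were highest for 4 and lowest for 10, so this list did not follow the members. *Plk2*, a kinase that p53 induces, was highest in these mice, between 0.96 and 1.42, and the death receptor *Fas* lowest, between -1.55 and -0.94. *Cdkn1a* itself ran from -0.28 to 0.48 and set no such mice apart. In the list of the iron and hypoxia response, the 4 mice were highest for 3 and lowest for 4 of 13 genes, shares near the 17.9% and 21.3% of all probes. The list gave no result by these counts, and its 3 genes of largest SD are given as values. The glucose transporter *Slc2a1* lay between 0.91 and 1.44 in them, above all others, and the mitophagy receptor *Bnip3* between -1.72 and -0.75, below all others. *Vegfa*, the endothelial growth factor, lay between -1.02 and -0.60, also below all others.

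The markers of cell types moved with the same mice. In whole fat pads a difference in RNA may lie in the number of cells of a type or in RNA per cell, which cannot be told apart. All 6 adipocyte markers were lowest in mice 4 to 7, and their mean log2 ratio lay between -2.67 and -1.55 in these mice and between -0.21 and 0.73 in the others. *Cfd* (adipsin), the fat cell gene with the largest range, lay between -4.69 and -3.36 in mice 4 to 7 and between -0.70 and 1.44 elsewhere. The hormone gene *Adipoq* (between -2.78 and -1.63 in mice 4 to 7) and the lipid droplet gene *Cidec* (between -2.10 and -1.07) had the next largest SDs. Of 8 macrophage markers 7 were highest in mice 4 to 7, with a list mean between 0.74 and 0.93 there and between -1.06 and 0.02 in the others. *Emr1* (F4/80) had the largest SD of these, 1.17, followed by *Msr1* with 1.10 and *Cd68* with 0.88. The part of these cells in the values of the members was not tested.

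The order within mice 4 to 7 was not the same in the members and in the markers. Mouse 6 was the highest of these 4 for 30 of the 33 members, compared to 32.5% of all probes. The mean of the macrophage list was lower in mouse 6 (0.74) than in mice 4, 5 and 7 (0.82, 0.83 and 0.93). Over all 10 mice, mouse 6 was highest for 29 of the 33 members and for 1 of the 8 macrophage markers, compared to 8.4% of all probes. That 1 marker lies near the share of all probes and is no result about the markers. At the low end the lists were alike: all 8 macrophage markers were lowest in mouse 9, as were 27 of the 33 members, compared to 15.1% of all probes. The adipocyte mean was the least low in mouse 6, at -1.55. Of the 5 endothelial markers 4 were lowest in mice 4 to 7, as were 3 of 6 expressed lymphocyte markers, so these lists ran against the members. The endothelial genes of largest SD were *Cdh5* (0.79), *Tie1* (0.63) and *Emcn* (0.35), and the lymphocyte genes were *Cd2* (0.59), *Ms4a1* (0.44) and *Cd3g* (0.43). The fibroblast and progenitor list set the 4 mice apart in neither direction as a whole, with 1 of 5 genes highest (*Col1a1*) and 1 lowest (*Dpp4*), while *Pi16* overlapped. All 3 expressed red cell markers, the globins *Hba-a1* and *Hbb-b1* and the heme synthesis gene *Alas2*, were lowest in mice 4 to 7.

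**Figure D4:**
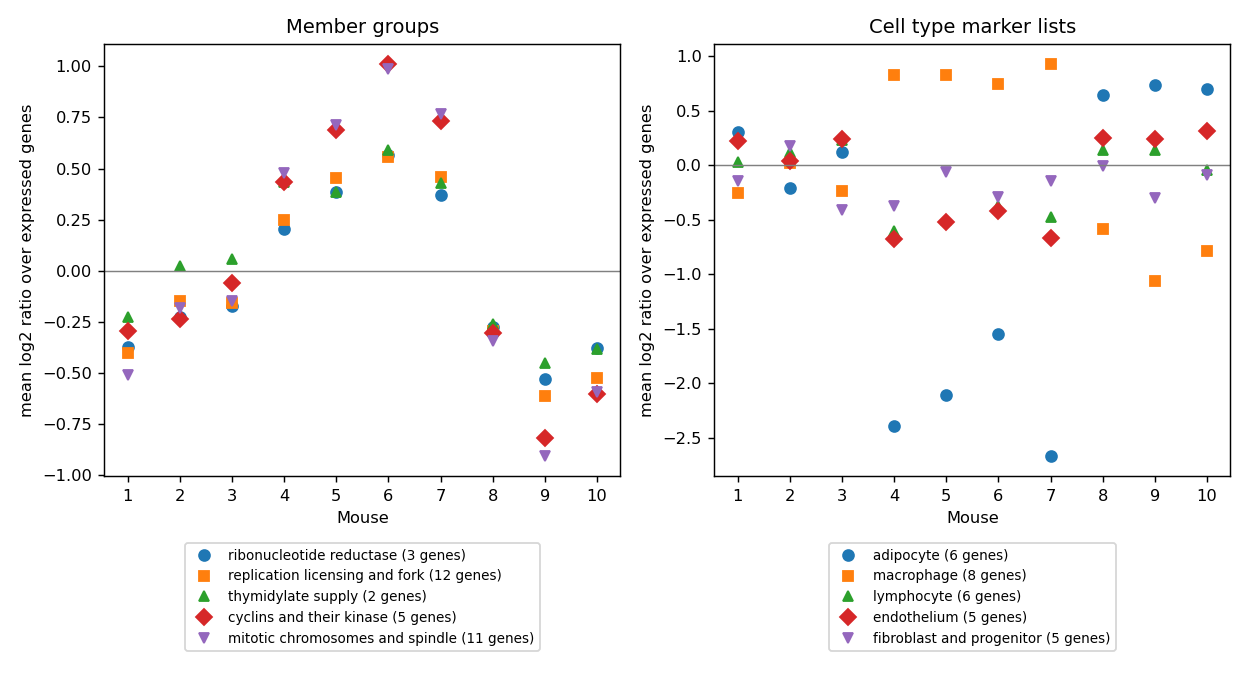
Mean log2 ratio over the expressed genes of each member group (left) and of each cell type marker list (right) in mice 1 to 10. The member groups peak in mouse 6 and are lowest in mouse 9. The macrophage mean is also lowest in mouse 9 (-1.06) but is nearly level from mouse 4 to mouse 7 (0.74 to 0.93). The adipocyte mean is lowest in mouse 7.

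Germ cell markers were looked at because the epididymis lies along this fat pad. Of 7 markers *Prm1*, *Prm2* and *Tnp1* were expressed and were below the pool in all 10 mice, while *Tnp2*, *Odf1*, *Akap4* and *Smcp* were not well above background. The mean of the expressed ones was highest in mouse 2 at -1.02 and between -2.79 and -2.10 in the other 9. Mouse 2 was not the highest mouse for any expressed member. Whether germ cells had a part in the values of the members was not tested.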

How the data were processed

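The arrays were 2-colour Agilent whole mouse genome arrays. The authors deposited scanner output of Agilent Feature Extraction 10.7.3.1 for each array, with the intensity of each spot and its background in both dyes (not normalized), flags, and a log10 Cy5/Cy3 ratio that the software had corrected for background and dye. A deposited table of normalized values for 30733 spots, on a log2 scale by its match to log2 Cy5, was an alternative. How it was centred is not given in the sources used here, and every column has a median of 8.52.

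Mean intensity was corrected with normexp (offset 50) and loess in limma 3.58.1 (R 4.3.3), with Aquantile between arrays for values of single channels. Control and outlier spots were left out, and spots of 1 probe were averaged (59305 spots, 55681 probes). Probes in the variance test were above background on at least 5 arrays in both dyes. The other steps used Python 3.11.15, numpy 2.4.6, pandas 2.3.3 and scipy 1.17.1. Correlations used 100000 permutations over 10 mice and all 720 over 6. Mice were called clustered on a gene where it parted mice 4 to 7 from the rest, or where its largest gap, with 3 mice or more on each side, was at least 0.4 of its range.

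On simulated data for the variance test over 25049 probes, an SD raised 4 times was called in 42% and 8 times in 92% of the changed probes. On simulated data for the slide test over 27718 probes, a slide SD 5 times the array SD was called in 99.5%. That simulation gave every probe the same array SD and held no split of mice within a slide. In the real data mice 3 and 4 shared slide 2, where *Pcna* was -0.58 and 0.73. The 99.5% therefore does not carry over to genes that split mice on 1 slide.

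Members, lists, pairs and tests were chosen with earlier results of these data known. Named are all members, the genes of the pairs, and the 3 expressed genes of largest SD in each other list. Replicates are separate mice by the labels, with 1 array each, and the number of arrays limits the precision. Alternatives were other background corrections, scalings, filters, tests and probes, the slide as a block, and leaving out mice.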

Additional observations from a re-analysis of the deposited data

Results flagged for a closer look

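In 3 of the 74 genes looked at, 1 mouse lay far from the other 9, by a gap above Dixon's critical share of the range. Chance gives such a gap in about 1 of 20 independent genes, and the number flagged is no larger. The far mouse was mouse 2 in all 3, so they may not be independent and the count does not settle whether chance made them. Mouse 2 also stood alone on the second component of all expressed probes (8.8% of the variance), with a score of 0.93 against -0.21 to 0.01 in the other 9. None of the 33 expressed members was among the 3 flagged genes. *Perp*, a p53 target of cell junctions, was 1.73 in mouse 2 and between -1.60 and -0.35 in the others, a gap of 0.6238 of the range. The sperm chromatin genes *Prm1* (-1.37 in mouse 2, -4.11 to -2.93 in the others, gap 0.5699) and *Prm2* (-0.79, compared to -2.26 to -1.93, gap 0.7702) were also highest in mouse 2.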

How the results depend on the processing

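The count of members that varied more in Cy5 than in Cy3 was 32 of 33, compared to 59.7% of all probes tested. It was 32 without background subtraction (61.2% of probes) and with an F test (56.4%). It was 29 with median centring (40.7%), 27 without normalization between arrays (18.7%) and 24 with the slide as a block (41.3%). With all 10 arrays required it was 30 of 30 (64%), and without a filter 31 of 34 (26.1%). With 1 mouse left out it was 31 to 32 (53.8% to 57.6%). Without mice 4 to 7, a setting chosen after seeing the data, it was 12 (14.2%). The share of all probes thus moved more with the setting than the count of members did. No member differed between slides under any of the 6 alternatives. At an unadjusted p below 0.05 the count of members moved from 25 to 7 of 33 with median centring. The count of all probes rose at the same time from 1137 to 2713 of 27718. Mice 4 to 7 held the 4 highest values for 28 to 30 members over 5 sets of values, mouse 6 the highest for 24 to 29 and mouse 9 the lowest for 18 (with median centring) to 27. The shares of all probes for these counts were taken from the main values only, so the counts under other values have no share beside them. Median centring shifted the median of all expressed probes to 0.32 and that of the members from -0.00 to 0.42.

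The values of r over 6 mice depended most on the setting. Without background subtraction, *Mki67* and *Top2a* (0.75) and *Top2a* and *Cd68* (0.80) no longer passed. With median centring none passed: *Rrm1* and *Rrm2* 0.93, *Rrm2* and *Rrm2b* -0.26, *Rrm2* and *Top2a* 0.83, *Mki67* and *Top2a* 0.76, *Ccnb1* and *Cdk1* 0.94, *Top2a* and *Cd68* 0.81. With the scanner's log ratio *Mki67* and *Top2a* (0.76), *Ccnb1* and *Cdk1* (0.94) and *Top2a* and *Cd68* (0.76) no longer passed. In the authors' table the same 6 pairs had 0.82, -0.46, 0.93, 0.70, 0.89 and 0.75, none past the threshold. With the mean over expressed probes *Top2a* and *Cd68* had 0.79. With the slide as a block, r of the 5 within-slide differences was 0.98, -0.90, 0.97, 0.89, 0.99 and 0.81 for these pairs, and 32 sign flips cannot give a p below 0.0625. Over all 10 mice *Mcm2* and *Mcm5* (0.90) and *Pcna* and *Mcm5* (0.96) passed as well. The sign of r turned for *Rrm2* and *Tfrc* without background subtraction (0.021), with median centring (0.46), in the authors' table (0.11), with the probe mean (0.025), over all 10 mice (0.63) and with the slide block (0.82). It turned for *Rrm2b* and *Cdkn1a* with median centring (0.33) and the slide block (0.98). The cause was not tested.

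With 1 mouse left out, r lay between 0.84 and 0.97 for *Rrm1* and *Rrm2*, -0.95 and -0.72 for *Rrm2* and *Rrm2b*, 0.89 and 0.99 for *Rrm2* and *Top2a*, 0.69 and 0.98 for *Mki67* and *Top2a*, 0.62 and 0.82 for *Mcm2* and *Mcm5*, 0.67 and 0.89 for *Pcna* and *Mcm5*, 0.89 and 0.99 for *Ccnb1* and *Cdk1*, 0.77 and 0.91 for *Top2a* and *Cd68*, -0.81 and 0.38 for *Rrm2* and *Tfrc*, and -0.22 and 0.32 for *Rrm2b* and *Cdkn1a*. Leaving out mouse 2, 3, 8, 9 or 10 ended the call of all 6 pairs, and leaving out mouse 1 that of *Top2a* and *Cd68* (adjusted p = 0.0694, exact permutation test). No paired analysis was possible because the replicate numbers belong to 1 group and pair no groups, and arrays on 1 slide were paired only as the slide block. Signals near background limit what dim probes such as *Tyms* and *Aurkb* can show.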
